A study of Mus musculus with 12 samples.

Results

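Ube3a, Snhg14, A230103L15Rik, 9330162G02Rik, Snrpn, Ndn, Magel2 and Mkrn3 lie in the imprinted stretch of mouse chromosome 7 that corresponds to the human Prader-Willi and Angelman syndrome region. These 8 of the 52636 genes in the deposited tables were taken by their symbols, and each symbol matched 1 row in the table of males and 1 in the table of females. The set was chosen on the low-against-high extinction changes of these genes in the authors' deposited tables and in TPM, so those changes are given below as a description, with no test. RNA had been sequenced from whole dissected hippocampi of 12 C57BL6/J mice, wild-type and 18 weeks old, with 1 library per mouse. Each sex contributed 3 mice classed as high and 3 classed as low in fear extinction, which makes 4 groups. Extinction is the loss of a learned fear response when its trigger is met without harm, and the sources used here do not say how mice were assigned to a level. All 12 mice shared genotype, strain and age. Changes are written as low minus high extinction, so a positive value is a higher level in mice with low extinction.

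In this region most genes are active only on the chromosome inherited from the father. A control element at the Snurf-Snrpn start carries methylation on the maternal chromosome, and the paternal chromosome produces Snrpn, which encodes a spliceosome protein, together with the long noncoding RNA Snhg14, the host of many small nucleolar RNAs (snoRNAs). Ube3a, a ubiquitin ligase gene, runs toward Snhg14 from the opposite side and is silenced on the paternal chromosome in neurons, where Snhg14 extends across it as an antisense transcript; loss of maternal UBE3A causes Angelman syndrome.

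Positions on chromosome 7 are from GENCODE M21 on GRCm38. Ube3a lies on the plus strand from 59228750 to 59311536 and Snhg14 on the minus strand from 59307924 to 59975759, so the annotated ends of both genes overlap. A230103L15Rik is a single-exon transcript of unconfirmed type on the minus strand, from 59327318 to 59331189, inside Snhg14 and past the end of Ube3a. 9330162G02Rik is also a single exon on the minus strand, from 59223847 to 59254788, and lies across the start of Ube3a. Snrpn reaches from 59982495 to 60140219 on the minus strand, and the intronless Ndn (62346569 to 62350262, plus strand), Magel2 (62377010 to 62381640, plus strand) and Mkrn3 (62417593 to 62420139, minus strand) lie on its far side.

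The start windows at both ends of the stretch from the control element to Ube3a are shown because the higher levels described below lie between them, at its Ube3a end. The first is the window of 250 bases before to 50 after the Snurf-Snrpn start (RefSeq, GRCm38.p6, chr7:60005150-60005449, minus strand), at the control element, and the second is the same window of Ube3a (chr7:59228500-59228799, plus strand), 5′ to 3′ with CG dinucleotides in capitals.
Snurf-Snrpn: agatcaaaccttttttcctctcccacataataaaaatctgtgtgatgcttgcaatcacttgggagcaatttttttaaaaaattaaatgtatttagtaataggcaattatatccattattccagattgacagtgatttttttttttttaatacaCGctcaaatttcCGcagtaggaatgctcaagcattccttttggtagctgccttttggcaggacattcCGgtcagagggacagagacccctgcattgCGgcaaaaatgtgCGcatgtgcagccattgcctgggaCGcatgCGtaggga
Ube3a: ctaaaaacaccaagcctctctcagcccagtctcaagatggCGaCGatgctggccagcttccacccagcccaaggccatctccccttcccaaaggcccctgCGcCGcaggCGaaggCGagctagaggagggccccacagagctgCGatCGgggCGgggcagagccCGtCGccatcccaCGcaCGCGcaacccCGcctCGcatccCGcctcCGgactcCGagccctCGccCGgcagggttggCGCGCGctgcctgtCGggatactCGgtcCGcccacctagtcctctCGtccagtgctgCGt
The Snurf-Snrpn window held 7 CG dinucleotides and had a GC content of 40.3%, against 29 CG dinucleotides and 69.0% in the Ube3a window. The median of all 32851 windows in the RefSeq table was 7 CG dinucleotides. The motif TGCCGC, searched on both strands and known as the core of ZFP57 binding, occurred once in the Snurf-Snrpn window and was not found in the Ube3a window, and 11.6% of all windows held it. RefSeq windows were matched for 6 of 8 genes, and Snhg14 shared its window (chr7:60450128-60450427) with an upstream start of Snrpn.

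Library facts bear on all levels below. Levels are in TPM, a unit corrected for transcript length whose values sum to 1000000 in each library. The tables of males and females were made separately, so levels of the sexes are set side by side and were not tested against each other. Each library held 18170 to 19062 genes at 1 TPM or more, and transcripts derived from ribosomal RNA took 8.39% to 24.8% of all TPM. All 10 hippocampus markers (such as Prox1 and Neurod6) and all 13 neuron markers were detected in each library. The choroid plexus marker sum ran from 341 to 3526 TPM in high-extinction males and from 60.5 to 986 TPM in low-extinction males, and its part in the results was not tested. In bulk tissue, fewer cells of a type and less RNA per cell cannot be told apart.

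The 8 genes differed widely in level. Over the 12 libraries, Snrpn averaged 369 TPM, Snhg14 131 TPM, Ube3a 84.7 TPM, Ndn 51.1 TPM, A230103L15Rik 19.5 TPM, 9330162G02Rik 12.9 TPM, Magel2 1.36 TPM and Mkrn3 0.628 TPM. Snrpn and Snhg14 stood apart from the genes next to them in that order in each library. The ranges of the next pairs touched: Ube3a ran from 44.8 to 100.4 TPM and Ndn from 48.3 to 58.8 TPM, A230103L15Rik ran from 15.5 to 24.5 TPM and 9330162G02Rik from 9.87 to 16.8 TPM, and Magel2 ran from 0.647 to 2.10 TPM and Mkrn3 from 0.325 to 0.932 TPM.

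**Figure D1:**
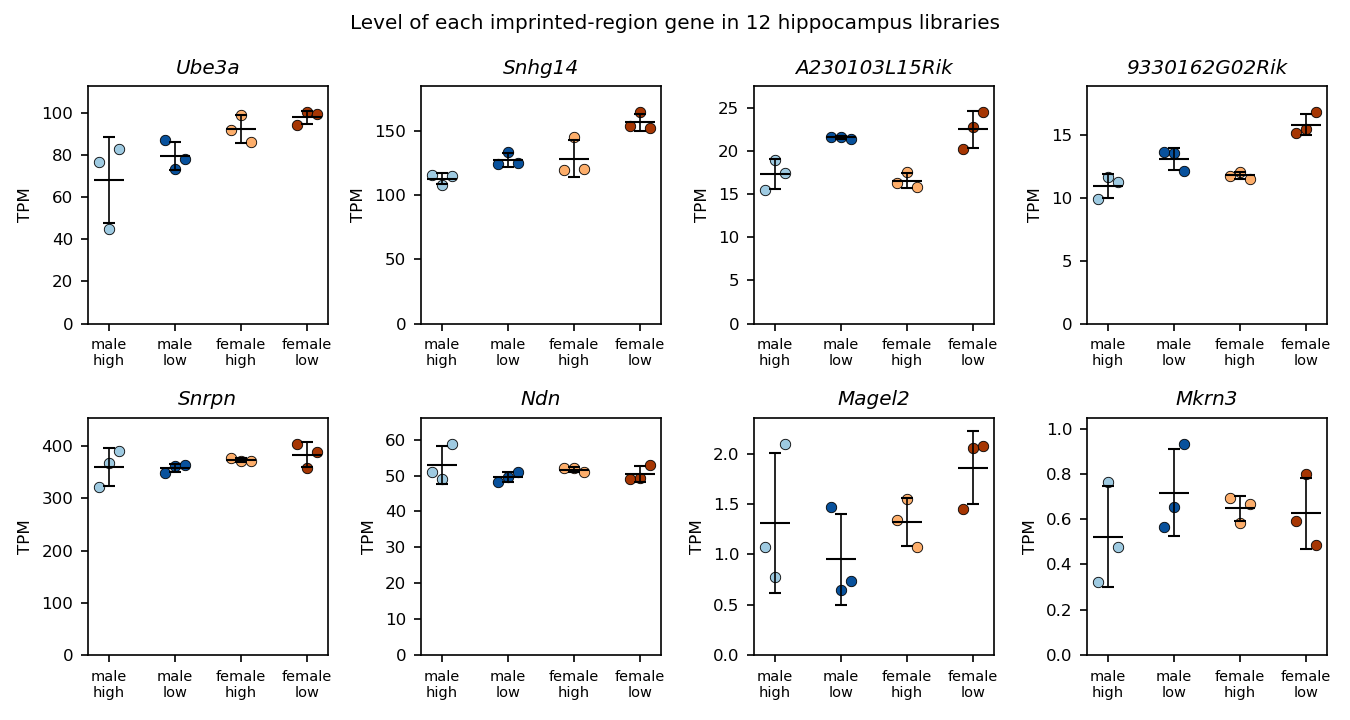
TPM (y axis, from 0) of each of the 8 genes in the 12 libraries, by sex and extinction level (x axis). Points are mice, horizontal lines are means of 3 mice and bars are SD; for Snhg14, A230103L15Rik and 9330162G02Rik all low-extinction points lie above all high-extinction points of the same sex.

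Ube3a, whose protein marks other proteins for degradation, was at 76.8, 44.8 and 83.3 TPM in high-extinction males and at 87.1, 73.5 and 78.5 TPM in low-extinction males. In females it was at 92.2, 99.2 and 86.1 TPM with high extinction and at 94.7, 100.4 and 99.5 TPM with low extinction. The groups overlapped in both sexes, and replicate 2 of the high-extinction males was the lowest of the 12 libraries. Group means were 68.3 ± 20.6 and 79.7 ± 6.89 TPM in males and 92.5 ± 6.53 and 98.2 ± 3.11 TPM in females (high then low, SD, n = 3 mice each). On the log2(TPM + 1) scale the male change was 0.27 (95% interval -0.25 to 0.78), and leaving out replicate 2 of the high-extinction males gave -0.01. The female change was 0.09 (-0.07 to 0.25), and 0.01 with median-of-ratios scaling. In the authors' deposited table, which rests on counts, Ube3a had a log2 change of 0.05 (SE 0.06) in males and 0.12 (SE 0.06) in females, or 1.04-fold and 1.09-fold. The ratio of male group means in TPM was 1.17, so both measures of the same mice differed for this gene.

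Snhg14 is the long RNA that crosses the Ube3a locus in neurons. It was at 115.6, 108.1 and 114.7 TPM in high-extinction males and at 123.8, 133.5 and 125.1 TPM in low-extinction males. In females it was at 119.4, 145.2 and 120.4 TPM with high extinction and at 153.6, 164.3 and 151.9 TPM with low extinction. All low-extinction mice were above all high-extinction mice of their sex. The ratio of group means was 1.13 in males and 1.22 in females, while the authors' deposited table gave 1.10-fold (log2 0.14, SE 0.08) and 1.12-fold (log2 0.17, SE 0.07). The separation of the groups depended on the scaling: with transcripts derived from ribosomal RNA removed the groups overlapped in both sexes, and with median-of-ratios scaling they overlapped in females.

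A230103L15Rik, inside Snhg14, was at 15.5, 18.98 and 17.5 TPM in high-extinction males and at 21.7, 21.7 and 21.4 TPM in low-extinction males. In females it was at 16.4, 17.6 and 15.9 TPM with high extinction and at 20.3, 22.8 and 24.5 TPM with low extinction. The groups did not overlap in either sex, and the low-extinction males had a mean of 21.6 TPM with an SD of 0.156 TPM (n = 3 mice). The authors' deposited table gave 1.26-fold in males (log2 0.34, SE 0.08) and 1.28-fold in females (log2 0.36, SE 0.08). On the log2(TPM + 1) scale the changes were 0.31 (95% interval 0.09 to 0.53) and 0.42 (0.20 to 0.63).

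9330162G02Rik, which lies across the Ube3a start on the other strand, was at 9.87, 11.7 and 11.3 TPM in high-extinction males and at 13.6, 13.6 and 12.1 TPM in low-extinction males. In females it was at 11.8, 12.1 and 11.5 TPM with high extinction and at 15.2, 15.5 and 16.8 TPM with low extinction. Here too each low-extinction mouse was above each high-extinction mouse of its sex. The fold in the authors' deposited table was 1.22 in males (log2 0.29, SE 0.07) and 1.27 in females (log2 0.34, SE 0.05), at a mean normalized count of 7586 in males and 8418 in females. On the log2(TPM + 1) scale the changes were 0.24 (95% interval 0.00 to 0.48) and 0.40 (0.22 to 0.57).

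Snrpn, which encodes the neuronal counterpart of a core protein of spliceosomal particles, was the most abundant of the 8 genes and did not separate the groups. It was at 321, 368 and 391 TPM in high-extinction males and at 349, 362 and 363 TPM in low-extinction males. In females it was at 377, 372 and 371 TPM with high extinction and at 404, 359 and 389 TPM with low extinction. The authors' deposited table gave 1.02-fold in males (log2 0.02, SE 0.06) and 0.93-fold in females (log2 -0.10, SE 0.05). On the log2(TPM + 1) scale the female change was 0.04 (95% interval -0.10 to 0.18), and its sign turned to -0.04 with median-of-ratios scaling.

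Ndn encodes necdin, a MAGE-family protein of neurons that have left the cell cycle. It was at 51.04, 48.9 and 58.8 TPM in high-extinction males and at 48.3, 49.5 and 50.9 TPM in low-extinction males. In females it was at 52.1, 52.0 and 50.9 TPM with high extinction and at 49.0, 49.2 and 52.9 TPM with low extinction. The groups overlapped in both sexes. In the authors' deposited table the log2 change was -0.07 (SE 0.08) in males and -0.13 (SE 0.05) in females.

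Magel2, whose protein acts with the ligase TRIM27 in sorting proteins at endosomes, was low. It was at 1.07, 0.771 and 2.10 TPM in high-extinction males, at 1.47, 0.647 and 0.732 TPM in low-extinction males, at 1.34, 1.55 and 1.07 TPM in high-extinction females and at 1.45, 2.06 and 2.08 TPM in low-extinction females. The groups overlapped in both sexes, and single mice differed by up to 3.24-fold. The log2 change in the authors' deposited table was -0.44 (SE 0.35) in males and 0.41 (SE 0.21) in females, at mean normalized counts of 112 and 153. Mkrn3, a makorin gene known for restraining the onset of puberty, ran from 0.325 to 0.932 TPM in males and from 0.488 to 0.798 TPM in females. At this level, with a mean normalized count of 33.81 in males and 33.98 in females in the authors' deposited table, it was under the minimum mean of 1 TPM for the fits, so 7 of 8 genes entered the limma fits.

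In the authors' deposited table, 2 of 8 genes passed an adjusted p of 0.05 as higher at low extinction in males, and 2 of 7 with an adjusted p in females (Mkrn3 had none), against 0.115% and 0.569% of all genes tested. These were A230103L15Rik and 9330162G02Rik each time. In the limma fits of log2(TPM + 1), 0 of 7 genes passed in males and 0 of 7 in females. Over all genes, those fits called 0 in males and 2 in females. Snhg14, A230103L15Rik and 9330162G02Rik had all low-extinction mice above all high-extinction mice, where 4.2% of genes did in males and 14.3% in females. Since the genes were proposed from this contrast, nothing is read from these shares.

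**Figure D2:**
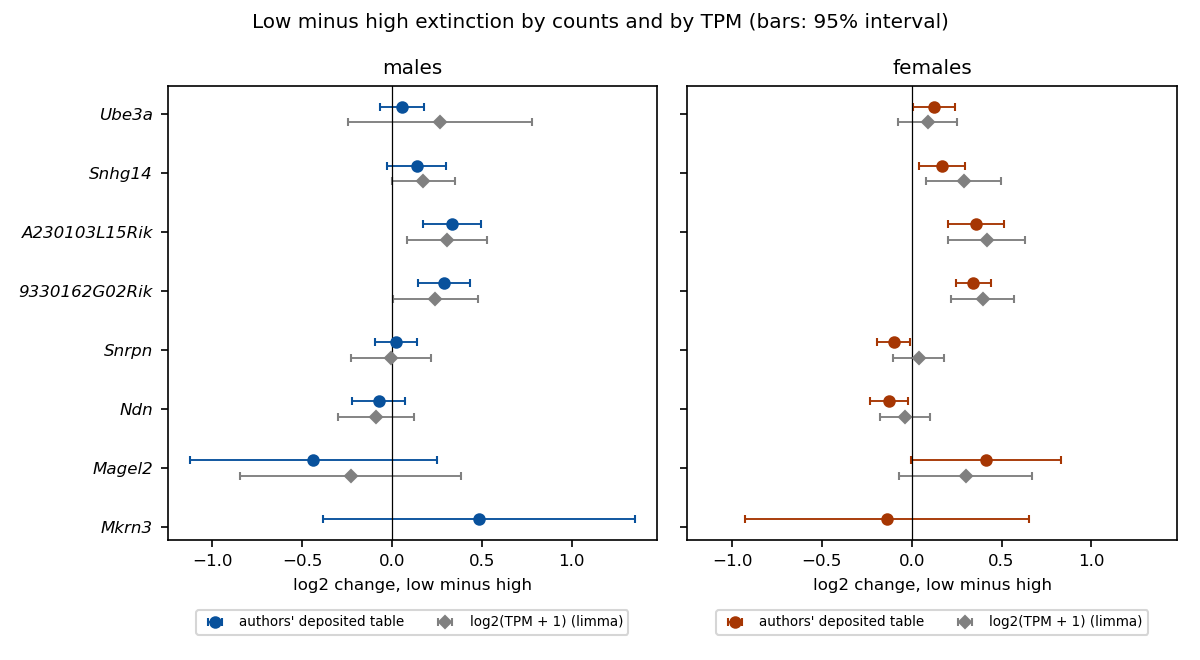
Log2 change, low minus high extinction (x axis), of each gene in males and females, from the authors' deposited table (circles) and from the limma fit of log2(TPM + 1) (diamonds), with 95% intervals. A230103L15Rik and 9330162G02Rik lie right of 0 by both measures in both sexes, Snrpn and Ndn lie near 0, and Mkrn3 has no diamond because it was under the minimum level.

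The male change minus the female change was computed from the same values that chose the genes, so it is given with its 95% interval and no test. On the log2(TPM + 1) scale, with limma's standard errors over 12 libraries, Magel2 had the difference farthest from 0, -0.53 (-1.22 to 0.17). Without replicate 3 of the high-extinction males the Magel2 difference was -0.30. The difference was 0.18 (-0.38 to 0.74) for Ube3a, and -0.10 without replicate 2 of the high-extinction males. It was -0.12 (-0.36 to 0.13) for Snhg14, -0.11 (-0.39 to 0.17) for A230103L15Rik and -0.15 (-0.41 to 0.10) for 9330162G02Rik, where the median of all genes was -0.09. With median-of-ratios scaling it was -0.01 for Snhg14, -0.01 for A230103L15Rik and -0.06 for 9330162G02Rik. For A230103L15Rik and 9330162G02Rik the intervals reach sizes close to those of the changes themselves.

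In the authors' deposited tables the fold of Magel2 was 0.74 in males and 1.33 in females, with a difference of -0.85 on the log2 scale (95% interval -1.66 to -0.05). This was the difference farthest from 0 among the 8 genes. Its interval is not adjusted for the number of genes, so no sex difference is read from it. From those tables the difference was -0.02 (-0.24 to 0.20) for A230103L15Rik and -0.05 (-0.23 to 0.12) for 9330162G02Rik.

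The genes around Ube3a were then read by position. Of the 311 genes in the tables between Herc2 and Chrna7, 61 averaged 1 TPM or more. From 9330162G02Rik to A230103L15Rik, and leaving out Ube3a and Snhg14 themselves, there were 7 such genes: 9330162G02Rik, Gm44562, Gm44559, Gm44560, Gm44830, Gm44829 and A230103L15Rik. This stretch was marked out after its values were seen, so it has no test. All 7 are single-exon transcripts of unconfirmed type; Gm44562, Gm44559, Gm44560 and Gm44830 lie within Ube3a, and Gm44829 and A230103L15Rik within Snhg14. Each of the 7 had all low-extinction mice above all high-extinction mice in males and in females, where 4.2% and 14.3% of all genes did. The same held with ribosomal RNA-derived transcripts removed (4.52% and 8.84% of all genes) and with median-of-ratios scaling (6.14% and 6.44%).

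Folds in the authors' deposited table ran from 1.22 to 1.40 over the 7 genes in males and from 1.25 to 1.42 in females. There, 2 of 7 passed an adjusted p of 0.05 as higher in males, and 4 of 7 in females, against 0.115% and 0.569% of all genes tested. Nothing is read from this, since the stretch was marked out on its values. In females Gm44559 (1.42-fold, log2 0.50, SE 0.13) and Gm44829 (1.303-fold, log2 0.38, SE 0.11) joined A230103L15Rik and 9330162G02Rik. As an example of the levels, Gm44830 was at 11.1 ± 0.0988 TPM in high-extinction and 15.5 ± 0.702 TPM in low-extinction males, and at 13.8 ± 1.29 and 18.3 ± 0.514 TPM in females (SD, n = 3 mice each). The median log2(TPM + 1) change over the 7 genes was 0.34 in males and 0.42 in females, against medians of -0.02 and 0.06 over all genes tested. Leaving out any 1 mouse gave medians of 0.25 to 0.39 in males and 0.38 to 0.46 in females. That 7 of 7 genes stayed higher each time was fixed in advance, since their groups did not overlap.

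Genes beyond this stretch were counted in the same way. Snrpn, Snurf and Gm38393, which share the Snrpn locus, had 0 of 3 genes with separated groups in either sex. From Snrpn to Chrna7, a stretch that holds Ndn and Magel2, low-extinction mice lay above all high-extinction mice for 0 of 18 genes in males and 3 of 18 in females, against 4.2% and 14.3% of all genes. On the other side, from Herc2 to 9330162G02Rik, the counts were 0 of 9 in males and 2 of 9 in females, beside the same shares of all genes. With so few genes the counts on both sides lie near those shares, so nothing is read from them.

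**Figure D3:**
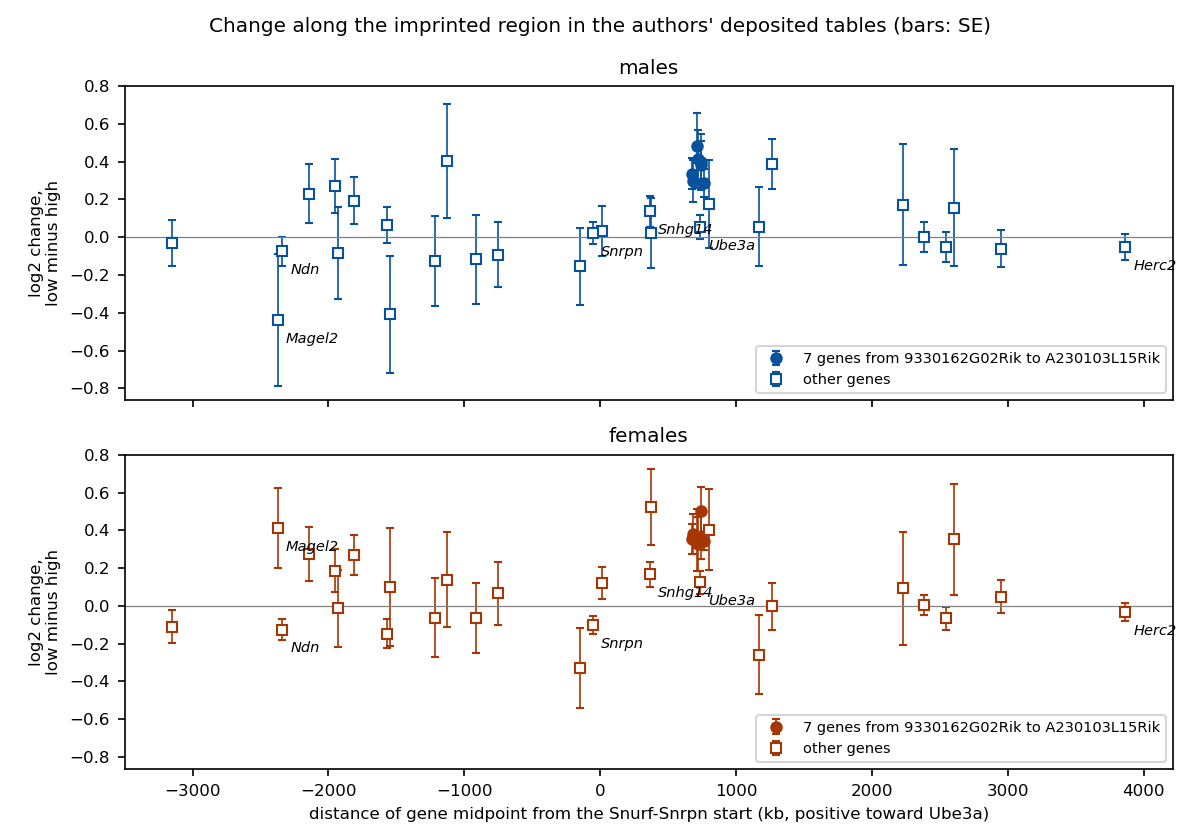
Log2 change, low minus high extinction, in the authors' deposited tables (y axis, bars are SE) against the distance in kb of each gene's midpoint from the Snurf-Snrpn start (x axis), for the 35 genes of the region other than snoRNA genes that averaged 1 TPM or more and had a mean normalized count of at least 30 in both sexes. Filled circles are the 7 genes from 9330162G02Rik to A230103L15Rik, which lie together above 0 in both sexes; open squares are the other genes.

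Strand and RNA class moved with this stretch or limit it. Exons on the opposite strand cover 27.3% of the exonic bases of Ube3a, 6.91% of those of Snhg14 and 5.80% of those of 9330162G02Rik. The sources used here do not state whether the counting used strand, so reads of Ube3a introns and of an antisense transcript over them cannot be told apart. Neither can reads of Gm44829 and of Snhg14. A230103L15Rik lies inside Snhg14 on the same strand, outside its exons. Its reads and reads of Snhg14 introns cannot be told apart with or without strand. Of 433 genes whose exons lie wholly inside exons of an opposite-strand gene, 10 had any count in the authors' deposited table, which is 2.31%, against 65.1% of all genes in males and 65.6% in females. Of 671 genes wholly inside exons of a same-strand gene, 50 (7.45%) had a count. Transcripts of unconfirmed type outside the region were higher at low extinction in 69.0% of cases in males and 83.9% in females on the log2(TPM + 1) scale, with median changes of 0.08 and 0.15. Protein-coding genes had medians of -0.03 and 0.06. The summed level of 11 nuclear-retained RNAs, such as Malat1, Meg3 and Miat, was 2993 to 3180 TPM in high-extinction and 3613 to 3777 TPM in low-extinction males, and 3100 to 3573 and 3872 to 4222 TPM in females, with no overlap in either sex. The neuron marker sum overlapped in both sexes, at 5089 to 6536 and 5306 to 5527 TPM in males and at 5932 to 6231 and 5639 to 6197 TPM in females. Markers of neighbouring tissue also moved with extinction level. The thalamus and habenula sum (11 markers, of which Pou4f1 was at 0 in 5 libraries and Chrnb4 in 1) was 99.8 to 134 TPM in high-extinction and 159 to 169 TPM in low-extinction females, and it overlapped in males at 102 to 136 and 84.2 to 124 TPM. The sum of 8 ependymal markers was 56.0 to 68.2 TPM in high-extinction and 19.5 to 42.2 TPM in low-extinction males, the opposite direction to the genes around Ube3a, and it overlapped in females. The sum of 9 meningeal markers was 116 to 135 TPM in high-extinction and 50.3 to 106 TPM in low-extinction males, and it moved the other way in females, as given below. The part of RNA class and of neighbouring tissue in the higher levels around Ube3a was not tested.

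The snoRNA genes carried inside Snhg14 numbered 208, and 21 of them averaged 1 TPM or more. Many belong to the Snord115 family, known for a stretch complementary to the serotonin receptor transcript Htr2c. The 3 with the highest mean TPM are shown, from GENCODE M21 transcripts on the minus strand (Gm24966 at chr7:59344073-59344151, Gm26498 at chr7:59386081-59386159 and Gm26230 at chr7:59368236-59368314), with the 18 bases whose reverse complement is in 2 of 7 annotated Htr2c transcripts in capitals.
Gm24966: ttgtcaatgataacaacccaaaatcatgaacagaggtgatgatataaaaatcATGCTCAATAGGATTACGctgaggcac
Gm26498: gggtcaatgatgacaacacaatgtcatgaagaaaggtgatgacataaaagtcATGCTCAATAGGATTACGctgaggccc
Gm26230: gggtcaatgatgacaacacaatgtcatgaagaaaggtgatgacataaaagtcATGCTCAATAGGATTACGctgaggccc
Gm26498 and Gm26230 have the same sequence, and Gm24966 is 86.1% identical to them. The 18-base run was in 105 of the 208 genes and in 12 of the 21 at 1 TPM or more. The 208 genes hold 85 distinct sequences, 147 genes share theirs with another gene, and the largest identical set has 33 genes, so reads could not be assigned to single copies with certainty.

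Gm24966 was at 24.4 ± 2.41 TPM in high-extinction and 23.5 ± 0.571 TPM in low-extinction males, and at 26.8 ± 5.52 and 33.7 ± 1.58 TPM in females (SD, n = 3 mice each). The authors' deposited table gave it 1.02-fold in males and 1.24-fold in females, at mean normalized counts of 87.7 and 103. Of the 21 snoRNA genes, 2 in males and 3 in females had all low-extinction mice above all high-extinction mice, where 4.2% and 14.3% of all genes did. Of the same 21 genes, 0 passed the adjusted p of 0.05 in either sex in the authors' deposited tables. In females Mkrn3 had no adjusted p at a mean normalized count of 33.98, and Gm26498 and Gm26230 had lower counts, 33.3 and 20.7. How many of the 21 had an adjusted p was not counted, so nothing is read from the 0. Libraries were enriched for polyadenylated RNA, which mature snoRNAs lack, and at 79 bases these TPM values rest on few counts.

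Levels relative to one another were given within each mouse. The Snhg14 to Ube3a ratio was 1.39 ± 0.0847 in high-extinction and 1.59 ± 0.0600 in low-extinction females (SD, n = 3 mice each), with 1.296, 1.46 and 1.40 against 1.62, 1.64 and 1.53, and the groups did not overlap. In males it was 1.51, 2.41 and 1.38 with high extinction and 1.42, 1.82 and 1.59 with low extinction, and the groups overlapped. The value of 2.41 belonged to the male library with the lowest Ube3a. The ratio of 9330162G02Rik to Snrpn did not overlap between the levels in either sex, at 0.0304 ± 0.0014 and 0.0366 ± 0.0029 in males and 0.0315 ± 0.0008 and 0.0413 ± 0.0032 in females (high then low). The ratio of A230103L15Rik to Snrpn did not overlap in either sex, and that of Snhg14 to Snrpn overlapped in both. The ratios of A230103L15Rik and of 9330162G02Rik to Ube3a overlapped in males and did not overlap in females. A ratio within a library shows unequal change and not which gene changed.

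How the genes varied together among mice of the same group was independent of the contrast that chose them. Deviations of log2(TPM + 1) from the 4 group means were correlated for all 28 pairs over 12 libraries, with exact permutation within groups (all arrangements of the mice within each group, two-sided). A230103L15Rik and 9330162G02Rik varied together, with r = 0.80 (exact permutation p 0.0008, the smallest these arrangements can give, adjusted over 28 pairs 0.0216) and rho = 0.80 (exact permutation p 0.0039, adjusted 0.054). Both genes were low in replicate 1 and high in replicate 2 of the high-extinction males, and high in replicate 3 of the low-extinction females. Replicate 1 of the high-extinction males had the largest share of ribosomal RNA-derived transcripts of the 12 libraries (24.8%). Replicate 3 of the low-extinction females had the smallest (8.39%). Without the 2 libraries farthest from the median of A230103L15Rik, r was 0.68. With any 1 mouse left out r ran from 0.66 to 0.92, with adjusted exact permutation p from 0.0648 to 0.162. The value of 0.0648 is the smallest that 11 libraries allow when 1 pair alone has the smallest p. After ribosomal RNA-derived transcripts were removed r was 0.64 (adjusted exact permutation p 0.0432). With median-of-ratios scaling r was 0.62 (adjusted exact permutation p 0.0216). How often pairs of genes outside the region reach r = 0.80 in these deviations was not computed.

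None of the other 27 pairs passed. Ube3a and Snhg14 had r = 0.35 (exact permutation p 0.134, adjusted 0.945) and rho = 0.39 (exact permutation p 0.208, adjusted 0.944). Ube3a and Magel2 had r = 0.75 (exact permutation p 0.0671, adjusted 0.94) and rho = 0.88 (exact permutation p 0.0023, adjusted 0.054), and both were lowest among high-extinction males in replicate 2. Ube3a and 9330162G02Rik had r = -0.29 (exact permutation p 0.703, adjusted 0.945) and rho = -0.14 (exact permutation p 0.775, adjusted 0.944), and r turned to 0.45 without that library. TPM values of 1 library sum to a fixed total, so a larger share taken by abundant transcripts lowers all other genes of that library.

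**Figure D4:**
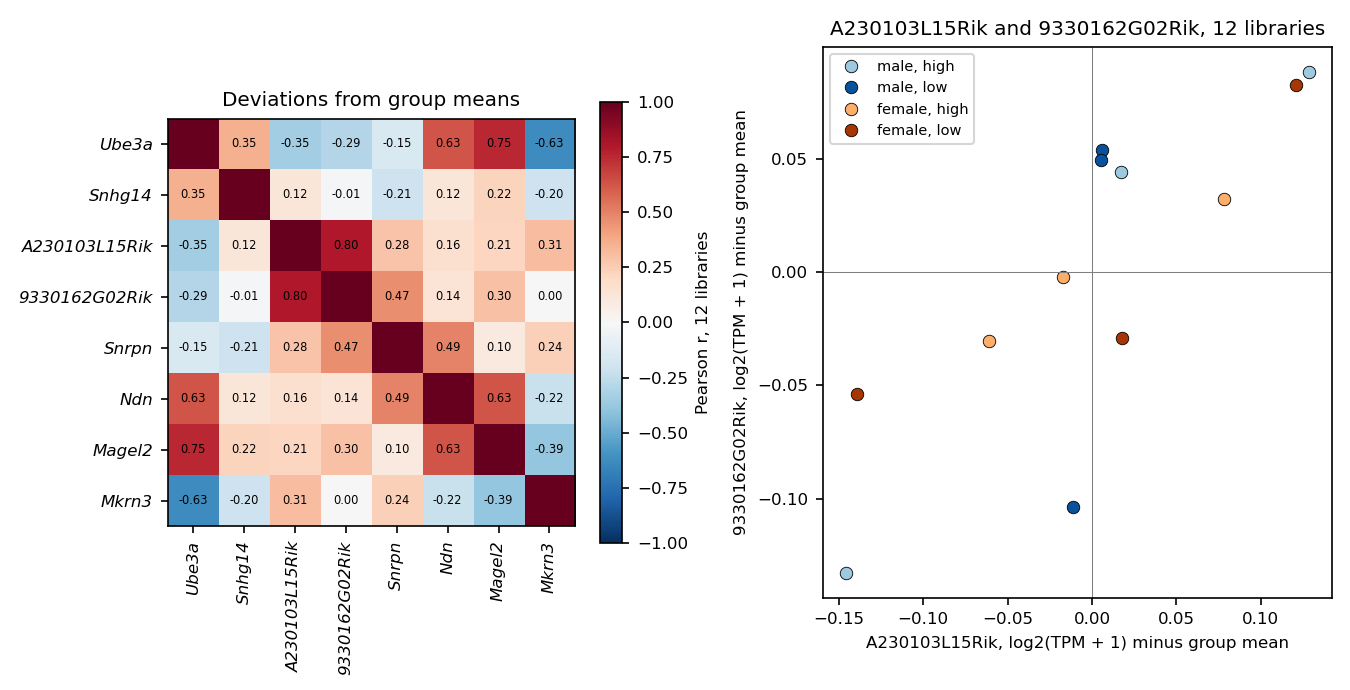
Left, Pearson r between deviations of log2(TPM + 1) from group means for each pair of the 8 genes over 12 libraries. Right, the deviations of A230103L15Rik (x axis) and 9330162G02Rik (y axis), with 1 point per mouse coloured by group; the points follow a rising line, at r = 0.80.

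Genes outside the region with the most similar within-group pattern were named by r over 12 libraries among 18320 genes, as a description. For Ube3a they were Tenm1 (r = 0.96), Snx10 (0.96) and Gabrb1 (0.95). For Snhg14 they were Nab1 (0.95), Snx13 (0.94) and 4930525G20Rik (0.94). For Snrpn they included Gm12933 (0.99) and Slc25a14 (0.97), and for Ndn they included Fgf13 (0.98) and Wasf1 (0.98).

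Related genes were counted by list. Of 24 neighbours of the region, among them Herc2, Atp10a and Cyfip1, 21 were in the tables and 0 passed in the authors' deposited table in either sex. Among 52 genes of other imprinted regions, 51 were in the tables, and 44 in males and 41 in females had an adjusted p. In males Meg3, a maternally expressed noncoding RNA, was 1.19-fold (log2 0.24, SE 0.06) and Mest, a paternally expressed gene, 0.73-fold (log2 -0.46, SE 0.11) in the authors' deposited table, and both passed. In females Meg3 (1.23-fold, log2 0.30, SE 0.06) and Igf2 (1.39-fold, log2 0.48, SE 0.09) passed in that table. Meg3 is also 1 of the 11 nuclear-retained RNAs. Of these, 4 in males and 2 in females passed there as higher, against 0.115% and 0.569% of all genes tested. The part of RNA class in the Meg3 values was not tested. Igf2 in males was 0.33-fold (log2 -1.62, SE 0.51) in the authors' deposited table and did not pass. Igf2 is also a gene of the meninges, and the sum of 9 meningeal markers, which include it, was 92.5 to 101 TPM in high-extinction and 116 to 137 TPM in low-extinction females. Its part in the Igf2 value was not tested.

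Among 20 partners and proposed targets of UBE3A, Arc, an immediate early gene of synaptic plasticity, was lower in low-extinction females at 0.78-fold (log2 -0.35, SE 0.08) and passed in the authors' deposited table. It was 0.62-fold in males in the same deposited table (log2 -0.70, SE 0.43) and did not pass. The other genes of this list did not pass in either sex, and 19 of the 20 genes had an adjusted p in each sex. Lists of MAGEL2 and necdin partners (21 genes in the tables), core proteins and assembly factors of spliceosomal particles (16 genes) and factors that maintain imprints or silence chromatin (21 genes) held 0 genes that passed in the authors' deposited table in males or females. An adjusted p was present for 21, 16 and 20 of these genes in males and for 21, 15 and 18 in females. Here too, nothing is read from 0 in such short lists.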

How the data were processed

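Per the labels' protocols, total RNA of dissected hippocampi (1 µg per sample) was enriched for polyadenylated RNA and made into libraries with an mRNA kit. Tools listed in the submitters' processing notes, without roles, were HTSeq, Bowtie2, TopHat2, DESeq2 and StringTie 1.3.3b, and the listed builds were mm10 and GRCm38.p5. The authors deposited TPM for each mouse in a table per sex. TPM keeps no depth, so reads per library are unknown and no count model was run here. Per the file headers, the authors' second table for each sex comes from DESeq2 and holds the mean normalized count (a signal over all 6 libraries), the log2 fold change and its SE, the Wald score, and raw and adjusted p-values. Its log2 sign was opposite to the TPM change for 101 of 101 genes called in the table of males and for 133 of 134 called in that of females, so it was multiplied by -1.

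Here, limma 3.58.1 (R 4.3.3, mean-variance trend, Benjamini-Hochberg at 0.05) was fitted on log2(TPM + 1) of all genes that averaged 1 TPM or more, within each sex and over 12 libraries for the interaction. The pseudocount understates changes of low genes. The sex difference of the deposited fold changes used their SEs and a normal reference. The fit was checked on simulated data with planted changes. Correlations, permutations and figures used Python 3.11.15, scipy 1.17.1, statsmodels 0.14.6 and matplotlib 3.10.9. Gene positions are from GENCODE M21, where 52489 of 52636 identifiers were found. No libraries were identical, and replicate numbers follow record order and pair no mice. Named were the 8 genes, list genes called by limma or in a deposited table, and the 3 genes of highest r, of which some are not reported here; the 7 genes around Ube3a and the snoRNA genes were named after their values were seen. The genes and lists were chosen with earlier results of these data known. Alternatives were other scalings, pseudocounts, low-value filters and variance models, a joint fit, and leaving out each mouse.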

Additional observations from a re-analysis of the deposited data

How the results depend on the processing

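No paired analysis was possible because the high and low groups of a sex share no mouse number in the labels. Precision is limited by 3 mice per group. The sex difference changed sign for Snrpn with median-of-ratios scaling (0.061) and for Ndn with median-of-ratios scaling (0.049) and quantile normalization (0.0208). Leaving out each mouse in turn, the sex difference ran from -0.10 to 0.34 for Ube3a, from -0.12 to 0.0205 for Snrpn and from -0.11 to 0.025 for Ndn, and the within-group r of Ube3a with 9330162G02Rik ran from -0.53 to 0.45. The number of pairs passing went from 1 to 0 with any mouse left out. With 11 libraries, a pair that alone has the smallest p gets an adjusted exact permutation p of 0.0648. For A230103L15Rik with 9330162G02Rik the adjusted exact permutation p reached 0.162. With each mouse left out in turn the Ube3a change in males ran from -0.01 to 0.43. Over all genes limma called 0 in males, 2 in females and 1 for the interaction, and 0 to 2, 0 to 4 and 1 to 2 under other settings. With a mouse left out it called 2 to 6 genes in males, 4 to 10 in females and 1 to 4 for the interaction. The median change of all genes moved between -0.07 and 0.01 in males and between -0.01 and 0.08 in females with the setting. A230103L15Rik and 9330162G02Rik kept a positive change in both sexes under each setting run, from 0.17 to 0.49. With a mouse left out that sign was fixed in advance, since their groups did not overlap. The same holds for the other pseudocounts, low-value filters and variance models and for the joint fit. Only removal of ribosomal RNA-derived transcripts, median-of-ratios scaling and quantile normalization could have changed the sign. Under these the changes ran from 0.23 to 0.38.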
